A study of Homo sapiens with 8 samples.

Results

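A set of 10 genes of glutathione metabolism and transsulfuration was followed in Saos-2 cells, an established human osteosarcoma line that lacks p53, on 8 microarrays. The genes were GSS, GSR, GPX1, GPX4, GPX8, GSTP1, GSTO1, MGST1, GLRX and CTH, chosen by name from 19775 genes with a probe set that the platform annotation gives to 1 gene. They had 20 such probe sets among 41091, and 9 of the 10 genes were bright enough to be tested, with 12063 genes tested in all; MGST1 was not. The groups were untreated cells (3 arrays), cells treated with a compound labelled Prima for 6 h (3 arrays) and for 12 h (2 arrays, replicates 1 and 3), and all of them were p53-null. The sources used here give no dose and no vehicle control, the line is 1 cell line, and nothing says that replicates were separate cultures, so the p-values reflect the scatter of these arrays alone, part of which may be technical. In these bulk samples fewer cells expressing a gene and less of its RNA in every cell cannot be told apart.

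Glutathione is a small thiol peptide that cells build from glutamate, cysteine and glycine and use to buffer oxidants and reactive electrophiles. CTH, cystathionine gamma-lyase, makes cysteine in the last step of transsulfuration, which carries sulfur over from methionine. GSS, glutathione synthetase, adds glycine in the last step of synthesis. Glutathione peroxidases spend glutathione on peroxides, glutathione transferases join it to electrophiles, glutaredoxins remove it from protein thiols, and GSR, glutathione reductase, turns the oxidised form back with NADPH. Several of these genes are known targets of the transcription factor NRF2, which binds antioxidant response elements, and genes of cysteine supply are known targets of ATF4, which binds C/EBP-ATF composite sites.

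Promoter windows in the RefSeq table (build GRCh38.p14, 250 bases before to 50 bases after a start site) were held for 8 of the 10 genes, 12 windows in all. The antioxidant response element core, written TGACNNNGC and searched on both strands, was found in 3 of these 12 windows, at GSTP1, GSTO1 and MGST1, and in 13.3% of all 35116 windows. The C/EBP-ATF composite core, written TGATGNAA and also searched on both strands, was found in 1 of the 12 windows, at GPX8, and in 3.62% of all windows. The motifs do not overlap in the windows shown. A match describes letters and not a bound site. The 250 bases upstream of the start are shown for the 3 genes with a match there. Each is on its + strand with the match in capitals. The MGST1 match begins at base 281 of its window, after the start, and is not shown. The GSTP1 match begins 66 bases before the start, the GSTO1 matches 226 and 161 bases before it, and the GPX8 match, read on the minus strand, 189 bases before it. The windows lie at chr11:67583562-67583811 for GSTP1, chr10:104254642-104254891 for GSTO1 and chr5:55159921-55160170 for GPX8.
GSTP1: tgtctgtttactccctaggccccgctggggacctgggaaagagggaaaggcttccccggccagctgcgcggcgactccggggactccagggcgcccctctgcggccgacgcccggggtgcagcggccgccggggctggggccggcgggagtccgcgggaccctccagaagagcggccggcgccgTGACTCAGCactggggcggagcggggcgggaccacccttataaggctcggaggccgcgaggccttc
GSTO1: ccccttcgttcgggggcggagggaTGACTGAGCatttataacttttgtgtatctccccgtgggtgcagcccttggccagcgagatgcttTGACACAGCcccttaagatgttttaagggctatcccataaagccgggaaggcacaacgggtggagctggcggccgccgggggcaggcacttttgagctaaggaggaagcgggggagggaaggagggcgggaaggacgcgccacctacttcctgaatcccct
GPX8: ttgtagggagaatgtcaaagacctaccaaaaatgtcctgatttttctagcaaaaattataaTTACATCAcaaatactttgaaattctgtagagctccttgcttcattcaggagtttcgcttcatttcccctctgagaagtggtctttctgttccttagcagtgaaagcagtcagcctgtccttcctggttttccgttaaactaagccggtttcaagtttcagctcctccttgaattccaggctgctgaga

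All values are MAS5 signals, a linear brightness per probe set scaled by the authors so that arrays share a common trimmed mean; a probe set's signal cannot be set against another's. Both arrays numbered 2 differed from the rest in overall level: their median probe set was at 50.9 (untreated) and 47.5 (6 h), against 14.2 to 24.95 on the other 6 arrays. Of the 9 tested members, 7 (77.8%) had their lowest signal on a replicate 2 array, compared with 56.5% of genes over a stricter level filter (the 75th percentile of probe sets) and 43.2% of all genes tested. No 12 h replicate 2 array was analysed here, so the untreated and 6 h groups each hold such an array and the 12 h group does not. Replicate numbers were taken as pairs, and same-numbered arrays deviated from their group means together in all 7 pairs (correlations 0.11 to 0.64). These values are not independent, because the deviations of the 2 arrays at 12 h mirror each other. For 12 h replicate 1 the pairing is not shown. It correlated at 0.11 and 0.16 with the untreated and 6 h arrays of its number, but at 0.33 and 0.29 with those of replicate 2. The ratio of the 3′ to the 5′ ACTB control ran from 1.12 to 1.73 on the untreated and 6 h arrays while the 12 h arrays had 2.29 (replicate 1) and 1.37 (replicate 3). Its part in the results was not tested. Of 9 listed osteoblast markers 7 were measured, and all 7 had a mean above the level filter. Their signals included COL1A1 at 2764 to 4801, RUNX2 at 1411 to 2350 and SPP1 at 14.5 to 94.2. Of the markers of other cell types, 1 of 3 blood, 1 of 2 endothelial and 1 of 3 epithelial genes passed that filter. These were PTPRC (0.47 to 80.6), PECAM1 (13.7 to 143) and EPCAM (26.0 to 245). Passing the filter therefore does not by itself show that a gene was expressed.

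No member passed the test in any comparison. Neither did any other gene: limma with Benjamini-Hochberg adjustment called 0% of the 12063 genes at 6 h against untreated, 12 h against untreated, 12 h against 6 h and treated against untreated. The smallest adjusted p of a member was 0.9999 at 6 h and 0.9999 at 12 h, and an unadjusted p under 0.05 was reached by 79, 74, 88 and 94 genes in the 4 comparisons, none of them a member. With the replicate block the corresponding counts were 493, 262, 297 and 489 genes, among them 1 member, GPX8, in treated against untreated only, and with none called after adjustment by limma, and the smallest adjusted p of a member was 0.831 at 6 h. What follows are therefore levels, differences and their errors, in which the width of the interval bounds how large a difference these arrays leave room for. The median standard error of a member was 0.30 at 6 h and 0.33 at 12 h on the log2 scale, against 0.35 and 0.39 over all genes tested.

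**Figure D1:**
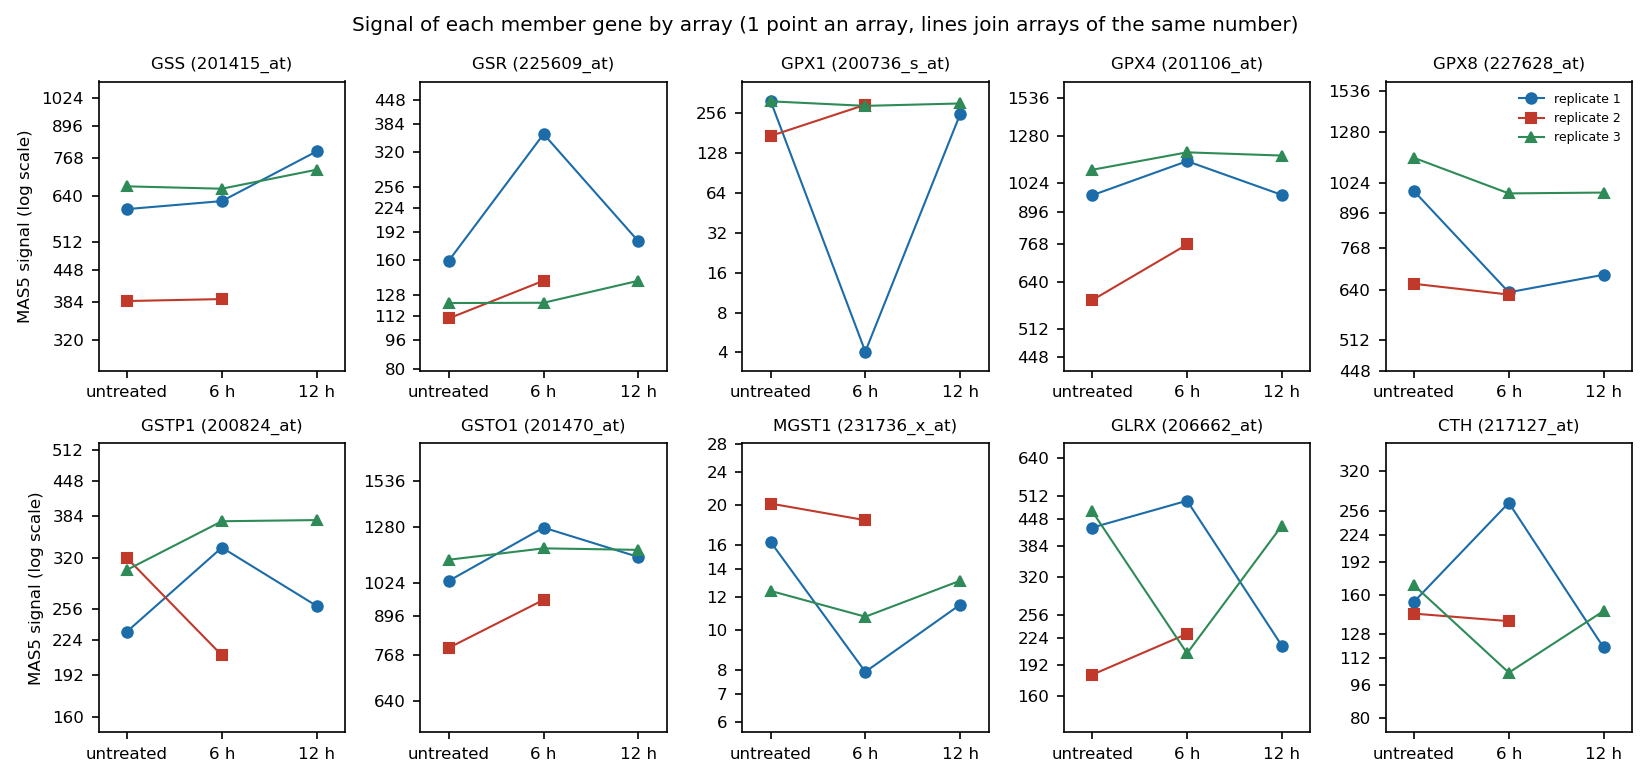
MAS5 signal (log axis) of the brightest probe set of each of the 10 genes in untreated, 6 h and 12 h cells, 1 point an array, with lines joining arrays of the same replicate number. GSS reaches its highest signals at 12 h, GPX1 lies at 4.05 on 1 array, and replicate 2 (squares) is lowest for most genes.

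Among the enzymes of synthesis and cysteine supply, GSS had signals of 600.0, 385 and 669 in untreated replicates 1, 2 and 3, of 624, 389 and 662 at 6 h, and of 792 and 725 in 12 h replicates 1 and 3. Both 12 h arrays were above all 6 others, so the 12 h group did not overlap with either other group, while the untreated and 6 h arrays were almost equal number by number. The group means were 552 ± 148 untreated (SD, n = 3), 558 ± 148 at 6 h (n = 3) and 759 ± 47.3 at 12 h (n = 2). The log2 difference at 12 h against untreated was 0.50 ± 0.32 (SE), with a 95% interval of -0.19 to 1.19, or 1.41-fold, and it was 0.02 ± 0.29 at 6 h. The low untreated value came from replicate 2, which has no 12 h partner: the 12 h difference was 0.26 without that array and 0.26 with the replicate block.

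The second GSS probe set, 211630_s_at, did not show the 12 h separation. It read 509, 597 and 526 untreated, 649, 503 and 571 at 6 h, and 627 and 522 at 12 h, with the groups overlapping and a 12 h log2 difference of 0.08 ± 0.26. On this probe set replicate 2 was the highest of the untreated arrays, where on 201415_at it was the lowest.

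CTH read 154, 144 and 169 untreated, 268, 138 and 103 at 6 h, and 119 and 146 at 12 h. The untreated arrays were close together (155 ± 12.5, SD, n = 3), and the 6 h arrays held both its highest and its lowest value. Its log2 difference was 0.01 ± 0.35 at 6 h, which was -0.38 without 6 h replicate 1 and 0.31 without 6 h replicate 3, and -0.24 ± 0.39 at 12 h (95% interval -1.08 to 0.60). On the second CTH probe set, 206085_s_at, 7 arrays lay between 48.8 and 61.7 and 12 h replicate 1 at 31.6, with a 12 h difference of -0.23 ± 0.50.

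GSR, the reductase that recycles oxidised glutathione, read 159.7, 110.3 and 122 untreated, 359, 140.4 and 122 at 6 h, and 181 and 140.4 at 12 h. A single array, 6 h replicate 1, was far above the other 7, which lay between 110.3 and 181. The means were 131 ± 25.8 untreated, 207 ± 132 at 6 h (SD, n = 3 each) and 161 ± 28.6 at 12 h (n = 2). The log2 difference at 6 h was 0.51 ± 0.39 (95% interval -0.33 to 1.34) and was 0.02 without 6 h replicate 1; at 12 h it was 0.30 ± 0.43, and 0.15 with the replicate block. Within same-numbered pairs GSR was higher in the treated array by 1.17, 0.35 and 0.00 at 6 h and by 0.18 and 0.21 at 12 h. On its dimmer probe set, 205770_at, the replicate 1 pair differed by 1.19 at 6 h and the replicate 2 pair by -0.44, and untreated replicate 1 (36.7) was its lowest array.

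The peroxidases GPX1, GPX4 and GPX8 had different patterns. GPX1, the abundant cytosolic peroxidase, has 1 probe set, which read 318, 173 and 316 untreated, 4.05, 297 and 292 at 6 h, and 252 and 304 at 12 h. The array of 6 h replicate 1 was 78.6 times below the highest and every other array was at 173 or more. Its log2 difference of -1.88 ± 1.18 at 6 h (95% interval -4.43 to 0.68) came to 0.19 without that array, and its 12 h against 6 h difference of 1.97 ± 1.32 came to -0.09. At 12 h against untreated GPX1 differed by 0.10 with a standard error of 1.32, from a spread pooled over the 3 groups and so including that array. With the replicate block the difference was 0.47, but that fit also includes 6 h replicate 1. It was below 0 when that array was left out of the blocked fit, and the 12 h pairs themselves differed by -0.34 and -0.05.

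GPX4, which reduces lipid peroxides in membranes, read 968, 588 and 1093 untreated, 1138, 766 and 1187 at 6 h, and 969.8 and 1169 at 12 h. The groups overlapped, but each 6 h array was above the untreated array of its number, by 0.23, 0.38 and 0.12 on the log2 scale. The fitted difference was 0.24 ± 0.28 at 6 h and 0.32 ± 0.31 at 12 h, the latter 0.08 with the replicate block. The 12 h pairs differed by 0.00 and 0.10.

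GPX8, a peroxidase of the endoplasmic reticulum, read 988, 657 and 1144 untreated, 633, 626 and 978 at 6 h, and 683 and 982 at 12 h. It was lower in every treated array than in the untreated array of its number, by log2 values of -0.64, -0.07 and -0.23 at 6 h and -0.53 and -0.22 at 12 h, although the groups overlapped. The fitted difference was -0.31 ± 0.29 at 6 h (95% interval -0.93 to 0.30) and -0.14 ± 0.32 at 12 h. The 12 h value was -0.32 with the replicate block. Over all 5 treated arrays the difference was -0.25, and -0.31 with the block, where its unadjusted p was under 0.05 and its adjusted p 0.928 by limma. The other GPX8 probe set, 228141_at, went the other way at 12 h: it read 412, 166 and 412 untreated, 257, 296 and 315 at 6 h, and 493 and 366 at 12 h. Its 12 h difference against untreated was 0.48 ± 0.39 (0.27 with the block), and against 6 h, where the arrays did not overlap, 0.56 ± 0.39 (0.35 with the block). Over all 5 treated arrays this probe set was also above 0, by 0.14, and by 0.05 with the block.

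Of the transferases, GSTP1, the pi-class enzyme, read 232, 319.5 and 304 untreated, 335, 209 and 375 at 6 h, and 259 and 377 at 12 h. The groups overlapped, and the replicate 2 pair went opposite to the others: the pairs differed by 0.53, -0.61 and 0.31 at 6 h and by 0.16 and 0.31 at 12 h. The fitted differences were 0.07 ± 0.30 at 6 h and 0.15 ± 0.33 at 12 h, the latter 0.07 with the replicate block. On the brightest probe sets of the 9 tested members, GSTP1 was the only one whose highest untreated array was replicate 2.

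GSTO1, the omega-class enzyme, which also reduces thiols in the manner of a glutaredoxin, read 1032, 791 and 1123 untreated, 1276, 957 and 1175 at 6 h, and 1135 and 1168 at 12 h. Both 12 h arrays were above all 3 untreated arrays, by a margin of 1135 against 1123, and each treated array was above the untreated array of its number. The log2 differences were small: 0.22 ± 0.23 at 6 h (95% interval -0.28 to 0.71) and 0.25 ± 0.26 at 12 h, or 1.19-fold, the latter 0.11 with the replicate block. The second GSTO1 probe set, 1557915_s_at, gave pair differences of 0.08, 0.06 and 0.03 at 6 h, and 854 and 887 at 12 h against 856 and 890.2 in the untreated arrays of those numbers.

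MGST1, a membrane-bound transferase of the endoplasmic reticulum and mitochondria, was near the bottom of the scale. All 5 of its probe sets were under the level filter, 38 of their 40 values were below the median probe set of their array, and 12 were at or under the floor of 2.385. The brightest by mean log2 signal, 231736_x_at, read 16.3, 20.2 and 12.4 untreated, 7.92, 18.4 and 10.8 at 6 h, and 11.5 and 13.1 at 12 h. The probe set 224918_x_at read 24.1, 46.8 and 0.79 untreated, 28.2, 44.5 and 1.42 at 6 h, and 4.22 and 0.649 at 12 h. In replicates 1 and 2 the untreated and 6 h arrays were close on it, 12 h replicate 1 was below both others of its number, and all replicate 3 arrays were under the floor. Signals on the replicate 2 arrays ran from 6.88 to 46.8 and on the others from 0.25 to 28.2, which is the opposite of the brighter members, and no difference was tested. A low signal on these probe sets does not show that MGST1 was not expressed.

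**Figure D2:**
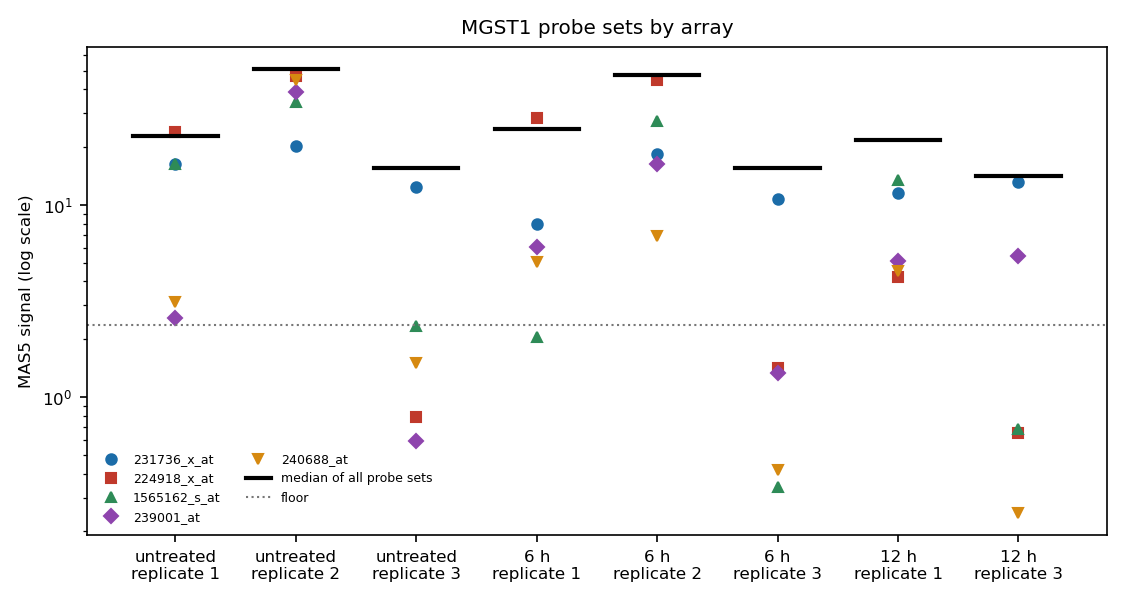
MAS5 signals (log axis) of the 5 MGST1 probe sets on each of the 8 arrays, with the array's median over all probe sets as a black bar and the floor as a dotted line. Both replicate 2 arrays have the highest bars, the highest MGST1 value, 46.8, is on untreated replicate 2, and 38 of the 40 values lie below their bar.

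GLRX, the cytosolic glutaredoxin, read 427, 181 and 469 untreated, 499, 230.0 and 205 at 6 h, and 215 and 432 at 12 h. Each group held at least 1 array of 230.0 or less and 1 of 427 or more. Its spread within groups (156, 163 and 154, SD) was larger than any difference between their means (359, 312 and 323). The log2 difference was -0.21 ± 0.43 at 6 h and -0.12 ± 0.48 at 12 h, the latter -0.42 with the replicate block. Its second probe set, 209276_s_at, differed by 0.41 ± 0.74 at 12 h, or by -0.29 with the block, and had its lowest arrays in replicate 2 (60.3 untreated, 31.3 at 6 h) where 206662_at was also low, but read 212 at 6 h in replicate 3 where 206662_at was low.

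**Figure D3:**
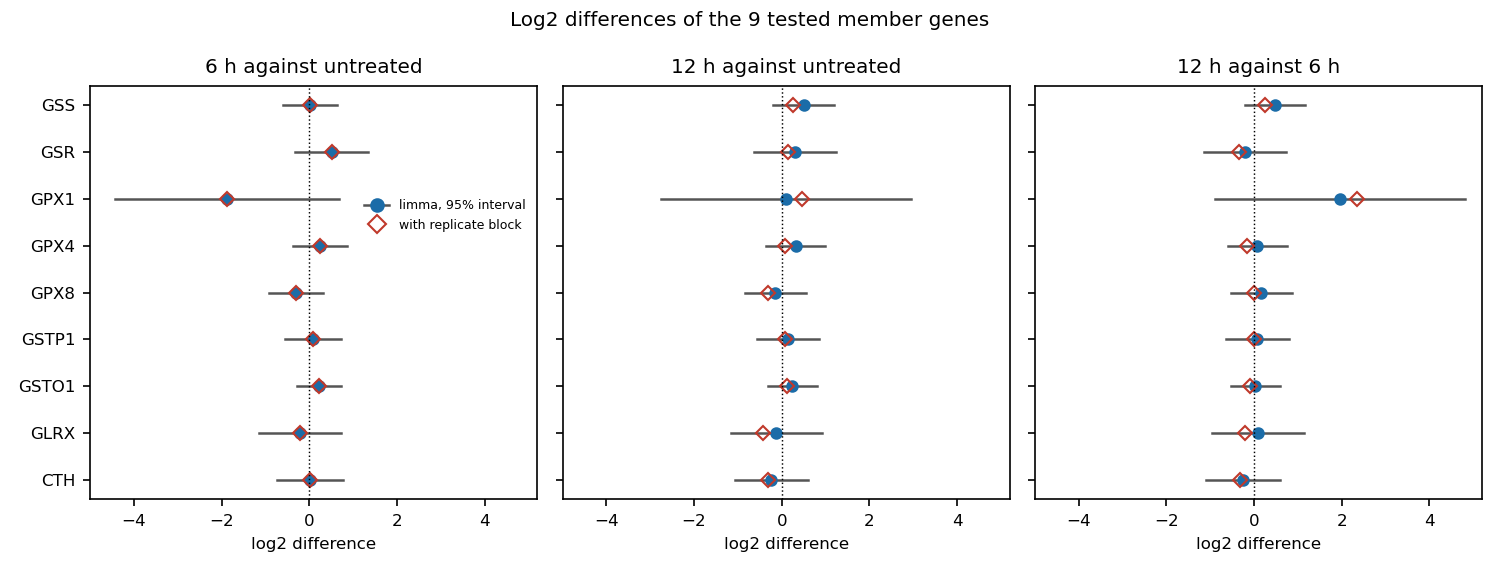
Log2 differences of the 9 tested genes at 6 h against untreated, 12 h against untreated and 12 h against 6 h, with 95% intervals from limma (circles) and the value with the replicate block (diamonds). Every interval includes 0, and the GPX1 intervals are the widest, reaching -4.43 at 6 h.

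At 6 h, 6 of the 9 tested members had a log2 difference above 0, beside 53% of all genes tested. The median member difference was 0.02, equal to the 0.02 of all genes. None of the members was separated from the untreated arrays, higher or lower, where 2.03% of all genes were higher and 1.51% lower without overlap. In all 3 same-numbered pairs GSR, GPX4 and GSTO1 were higher and GPX8 was lower, compared with 13.6% of all genes higher and 10.4% lower in every pair. These are the brightest probe sets, and GSR counts there by a difference of 0.00 in replicate 3. On the second probe sets the replicate 2 pair went the other way for GSR (-0.44) and GPX8 (0.83), while GSTO1 was higher in all 3.

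At 12 h, 6 of 9 members were above 0, beside 59.9% of all genes, and the median member difference was 0.15 against 0.08 for all genes (0.08 against 0.04 with the replicate block). The arrays of GSS and GSTO1 did not overlap with the untreated ones, both higher, and no member was lower without overlap, where 9.6% of all genes were higher and 4.89% lower. In both same-numbered pairs GSS, GSR, GPX4, GSTP1 and GSTO1 were higher and GPX1, GPX8, GLRX and CTH lower, beside 34% of all genes higher and 25% lower. On their brightest probe sets all 9 members thus had the same sign in both pairs. Sizes ran from 0.00 (GPX4, replicate 1) to -0.99 (GLRX, replicate 1). The second probe sets of GSS (0.30 and -0.01), GPX8 (0.26 and -0.17) and CTH (-0.69 and 0.13) changed sign between pairs. That of GSTO1 was just below 0 in both (-0.003 and -0.005), while those of GSR and GLRX kept the sign of the brightest. The 12 h and 6 h comparisons share the untreated arrays, so their values are not independent of each other.

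At 12 h against 6 h, 7 of 9 members were above 0, beside 57.2% of all genes, with a median of 0.07 against 0.06. GSS was separated, higher at 12 h by 0.48 ± 0.32 (0.24 with the replicate block), and no member was lower without overlap; 7.1% of all genes were higher and 4.5% lower in that way. With the block, which compares within replicates 1 and 3, 2 of 9 members were above 0 and the median was -0.10.

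**Figure D4:**
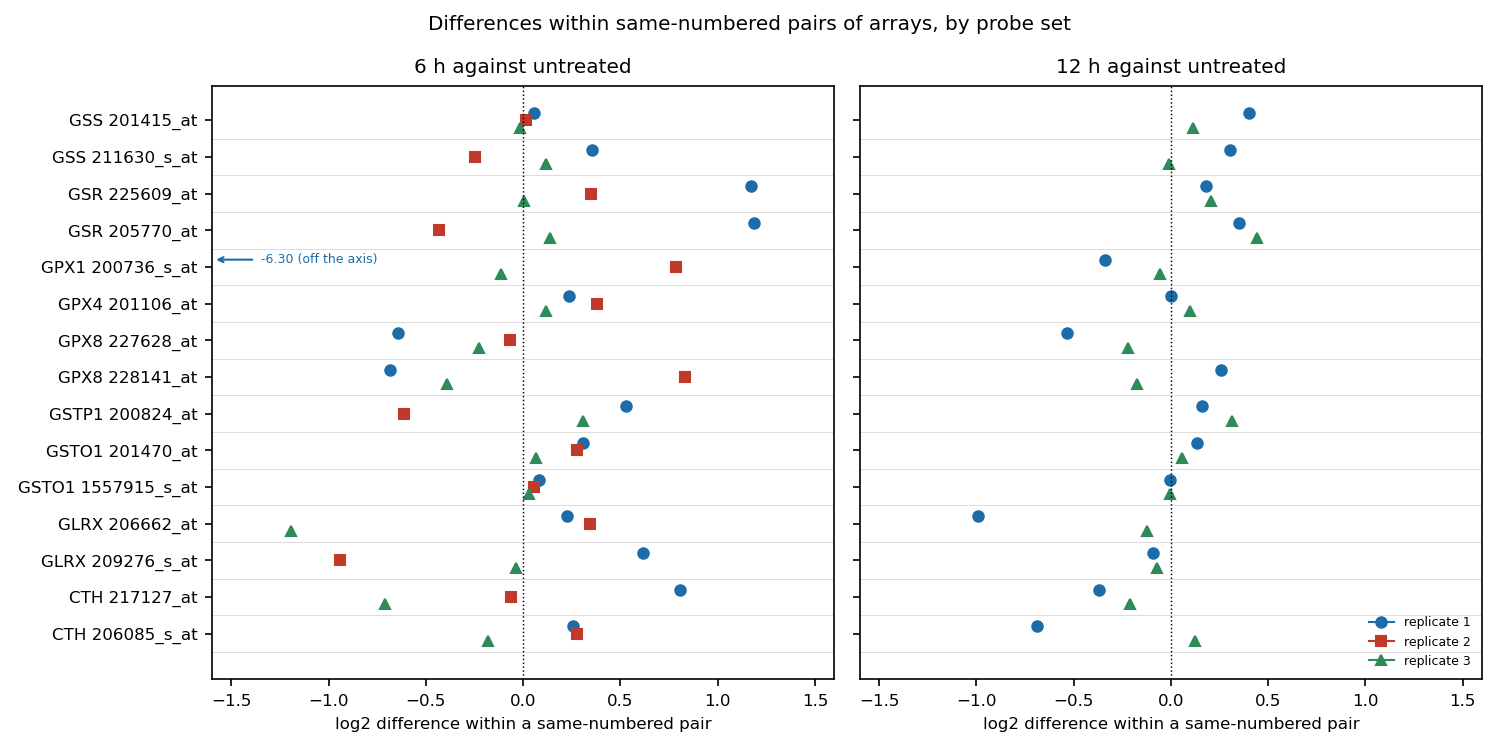
Log2 difference of each treated array from the untreated array of the same number for every tested probe set of the 9 tested genes, at 6 h (3 pairs) and 12 h (2 pairs). On their brightest probe sets GPX4, GSTO1 and GPX8 keep their sign in the 6 h pairs, GSR does so with 1 pair at 0.00, and GPX1 in replicate 1 at 6 h, at -6.30, is beyond the axis and marked by an arrow.

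For the 6 members with a second probe set above the filter (GSS, GSR, GPX8, GSTO1, GLRX and CTH), both probe sets had the same sign in 6 of 6 genes at 6 h, 4 of 6 at 12 h and 6 of 6 at 12 h against 6 h. The genes whose probe sets differed in sign at 12 h were GPX8 (-0.14 and 0.48) and GLRX (-0.12 and 0.41). With the replicate block the GLRX values at 12 h were both below 0 (-0.42 and -0.29), while those of GPX8 (-0.32 and 0.27) and GSTO1 (0.11 and -0.004) differed in sign. At 12 h against 6 h GSS counts by a second value of 0.002. With the block the values of GSS (0.24 and -0.01) and GPX8 (-0.003 and 0.35) differed in sign there. The probe sets of a gene share the RNA and the array, and no probe set passed the test among 27306 tested with limma, where 172 had an unadjusted p under 0.05 at 6 h and 221 at 12 h.

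The rest of the pathway was described with 9 lists of glutathione and sulfur genes, which hold 87 genes besides the members. Of these, 60 were tested, none passed the test, and 38 were above 0 at 6 h (53% of all genes tested), 39 at 12 h (59.9% of all genes) and 32 at 12 h against 6 h (57.2% of all genes). At 12 h, 6 of the 60 were higher than every untreated array and 4 lower, beside 9.6% and 4.89% of all genes. Their median 12 h difference was 0.12, beside 0.15 for the members and 0.08 for all genes. With the replicate block the median of all genes was 0.04. The medians of the 9 lists, members included, then ran from -0.06 (glutaredoxins) to 0.18 (synthesis). No blocked median was taken over the 60 genes, so the order of 0.12 and 0.08 is not given with the block.

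In synthesis, all 3 genes were above 0 at 12 h. Beside GSS, GCLM, the modifier subunit of the rate-limiting glutamate-cysteine ligase, averaged 2288 at 12 h and 2008 untreated (0.20 ± 0.24, and 0.10 with the replicate block), and GCLC, its catalytic subunit, 461 and 428 (0.12 ± 0.37, and 0.18 with the block). In breakdown, 5 of 7 tested genes were above 0 at 12 h, and 2 with the block. CHAC1, which degrades glutathione and is a known ATF4 target, averaged 47.7 at 12 h and 28.0 untreated without overlap (1.27 ± 0.98), its untreated arrays being at 36.0, 43.0 and 4.99. GGACT, which acts on gamma-glutamyl products, was lower without overlap (-0.77 ± 0.86, and -0.37 with the block).

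Among the peroxidases 2 of 4 were above 0 at 12 h, and 3 with the replicate block. GPX1 counts among them, although it was below 0 in both 12 h pairs. The only tested one besides the members, GPX3, the secreted peroxidase, differed by -0.77 ± 1.16, which turned to 0.12 with the block. Of the transferases, 10 of 15 were above 0, and 8 with the block. GSTA1, an alpha-class enzyme, averaged 45.5 at 12 h and 94.0 untreated without overlap (-0.89 ± 0.55, and -0.44 with the block), with untreated replicate 2 at 158 and the other untreated arrays at 69.4 and 54.9, and GSTCD differed by 0.42 ± 0.50 (0.03 with the block). Of the glutaredoxins 3 of 4 were above 0, and 2 with the block. GLRX2, a mitochondrial one, was at 0.28 ± 0.36 and GLRX5, which serves iron-sulfur cluster assembly, at 0.22 ± 0.31, against 0.02 and 0.03 with the block.

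In the list of glutathione reduction and NADPH supply, which holds GSR, 6 of 9 were above 0 at 12 h with and without the replicate block. TKT, transketolase of the pentose phosphate pathway, averaged 1185 at 12 h and 920 untreated without overlap (0.36 ± 0.23), and ME1, the cytosolic malic enzyme, differed by 0.24 ± 0.33 (0.06 with the block). In the methionine cycle and transsulfuration, the list of CTH, 6 of 9 were above 0, and 5 with the block. MAT2A, which makes S-adenosylmethionine, differed by 0.33 ± 0.31 (0.12 with the block) and AHCYL1, a relative of adenosylhomocysteinase, by 0.24 ± 0.27, the latter without overlap.

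Of the genes of cysteine and sulfide use, 2 of 8 were above 0 at 12 h, and 4 with the replicate block. GOT1, a cytosolic aspartate aminotransferase, differed by 0.39 ± 0.36 and SUOX, sulfite oxidase, by -0.65 ± 0.58, against 0.18 and -0.19 with the block. Of the genes that handle glutathione conjugates, 8 of 10 were above 0 with a median of 0.13, and 4 with a median of -0.01 under the block. ABCC1, which exports such conjugates, averaged 360.3 at 12 h and 278 untreated without overlap (0.38 ± 0.27), and ADH5, which clears formaldehyde and nitrosothiol adducts, differed by 0.19 ± 0.29, which turned to -0.01 with the block. None of these genes passed the test, the adjusted p being 0.9999 for each at 12 h with limma.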

How the data were processed

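RNA of 8 Saos-2 samples was measured on Affymetrix 3′ arrays after biotin labelling of cRNA, per the labels' protocols. The authors deposited 1 linear intensity per probe set and array, and per the submitters' processing notes used MAS5 to make it. Its version, settings and scanner files were not used here. The trimmed mean (2% at each end) was 100.01 on every array, so fold changes are relative to that scaling, and the number of arrays limits precision. Control probe sets (62 of 54675) were left out.

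A floor at the 10th percentile of the table (2.385) was applied before taking log2, which understates differences of dim genes. Each gene took its brightest probe set with 1 gene symbol, and was tested if its mean log2 signal exceeded the median probe set (4.22, a signal of 18.6). Differences were fitted over all tested genes in R 4.3.3 with limma 3.58.1 (lmFit, eBayes with trend, 3 groups in 1 fit, 5 against 3 arrays for treated against untreated), with two-sided p-values, Benjamini-Hochberg adjustment and a threshold of 0.05. The scripts were tested on simulated data. Arrays were paired by number. Same-numbered arrays correlated at 0.11 to 0.64 in their deviations from group means, and others at -0.58 to 0.33, so the ranges overlap. The blocked value is therefore given beside a fitted difference or count that it moves by over 1.5 times or turns in sign, and beside some others.

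Alternatives were the replicate block, other scalings, floors, filters, probe-set rules, array weights and leaving out arrays. The members and lists were chosen with earlier results of these data known. All members were named, and from each pathway list also the genes outside the members with the smallest p at 12 h, at most 2 a list. Motifs were searched in RefSeq promoter windows, and no coordinates came from the arrays.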

Additional observations from a re-analysis of the deposited data

Results flagged for a closer look

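GPX1 on 6 h replicate 1 had a signal of 4.05 among the 5 treated arrays, whose other values were 297, 292, 252 and 304. On the log2 scale its gap to the nearest array was 0.956 of the range of these arrays. That is above Dixon's critical value of 0.71 for 5 samples. All 10 genes were checked in this way, and GPX1 alone was above that value. Chance marks about 1 in 20 groups in this way. On the same array GSR, GSTO1, GLRX and CTH had their highest signals, and 19.3% of all genes tested had their highest and 16% their lowest signal there. GPX1 has 1 probe set, so no other measurement of it was at hand, and the cause was not tested.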

How the results depend on the processing

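No gene was called under any of the 23 alternatives for 6 h, 12 h and 12 h against 6 h or the 22 for treated against untreated, with a smallest adjusted p of 0.135 over all genes, in treated against untreated. The median member difference ran from -0.06 to 0.26 at 6 h, -0.04 to 0.73 at 12 h, -0.10 to 0.66 at 12 h against 6 h and -0.09 to 0.33 for treated against untreated. Centring arrays on their median gave 0.73 at 12 h and 0.66 at 12 h against 6 h, where the median of all genes also moved, to 0.66 and 0.65. Against all genes the member median was then 0.06 and 0.01 higher. With the replicate block, which takes same-numbered arrays as related, the median was 0.08 at 12 h and -0.10 at 12 h against 6 h. For 12 h replicate 1 that relation is not shown. Over these alternatives GSS stayed above 0 at 12 h (0.22 to 1.08), GSTO1 at 6 h (0.07 to 0.33) and GPX8 below 0 at 6 h (-0.54 to -0.14). Against untreated, GSR at 6 h (0.02 to 0.80) and GSR, GPX4 and GSTO1 at 12 h also stayed above 0. Their lowest 12 h values were 0.10, 0.05 and 0.08. None of these was past the threshold. GPX1 at 6 h ran from -3.20 to 0.27 and changed sign without 6 h replicate 1. Array weights with the block, and leaving out 6 h replicate 1 with the block, were added after seeing the data. Dim signals limit MGST1, for which no difference was fitted with the filter.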
